A study of Mus musculus with 4 samples.

Results

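The zinc finger genes named Zfp900 to Zfp999 were followed in lung mesenchymal cells with and without a conditional deletion of Dnmt1, the enzyme that copies DNA methylation onto newly made strands. The count table held 53 genes whose symbol is Zfp9 followed by 2 more digits, among 31247 genes with a read. The 47 genes with at least 10 reads summed over the 4 libraries are described here. They lie on 12 chromosomes. The rule uses the symbol and the total number of reads and not the difference between genotypes. The other 6 genes (Zfp941, Zfp967, Zfp972, Zfp973, Zfp981 and Zfp985) had 2 to 9 reads each. Of the 47 genes, 43 had enough reads for the test.

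The cells are myofibroblasts by their labels, and were sorted by a Pdgfrb-GFP reporter from the lungs of mice at postnatal day 7. The wild-type group (WT) carried Pdgfrb-GFP alone and comprised 2 libraries, here WT A and WT B. The mutant group (CKO, 2 libraries, CKO A and CKO B) carried Pdgfrb-GFP, Tbx4-rtTA, Tet-O-Cre and Dnmt1-D/D, so that Cre depends on a Tbx4-driven transactivator. The WT label names neither rtTA nor Cre. About 300000 to 350000 cells were sorted per sample, and the sources used here give no strain or litter. The protocol speaks of 2 lungs per genotype, and p-values cover the spread among these 4 libraries and no more. By the names of their count columns WT A stands apart, since the other 3 names open with 1 shared number whose meaning is not given. Within those 3 libraries, without WT A, the median log2 difference was -0.07 over the tested genes of the set. Over all tested genes it was -0.002. Where 2 values are given for a genotype, library A comes before library B.

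Most genes of this name range encode KRAB zinc finger proteins. In such a protein a row of zinc fingers reads a DNA sequence, and the KRAB domain recruits the corepressor TRIM28, which brings in the histone methyltransferase SETDB1 and heterochromatin proteins. These factors are best known for silencing transposable elements, and a few of them protect DNA methylation at imprinted loci. Their genes arose by repeated duplication and stand in clusters of close relatives. Translated GENCODE M21 coding sequences, available for 46 of the 47 genes, held between 0 and 21 zinc finger patterns with a median of 11, and 43 of the 46 held at least 5. The pattern of the KRAB A box was found in 28 of the 46.

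The 4 libraries held 23071657 to 26420648 counted reads, and levels are given in CPM, read counts divided by the scaled library size, in which 1 read was worth 0.0377 to 0.0439 CPM. Dnmt1 had 144 and 115 CPM in WT and 78.1 and 29.5 CPM in CKO. Both CKO libraries were below both WT libraries. In the authors' deposited table the log2 fold change of Dnmt1 was -1.23 with an adjusted p of 0.029, under the threshold for a call. In the test used here the difference (log2 -1.27 ± 0.57 SE) was not called (edgeR quasi-likelihood test, adjusted p = 0.31). It was -2.11 (adjusted p = 3.82e-05) without CKO A and -0.72 (adjusted p = 0.0401) without CKO B. WT B had reads on 27643 genes against 21883 to 22532 in the other libraries, and 4444 reads of Y-linked genes were found in CKO A against 0 in each of the others. The sum of 8 mesenchymal markers was 64500 and 65110 CPM in WT and 75010 and 87210 CPM in CKO, higher in both CKO libraries, with no marker called. The part of this in the results below was not tested. The sum of 4 endothelial markers was 60.0 to 109.8, of 4 epithelial markers 31.2 to 91.3 and of 4 immune markers 28.5 to 60.5. None of these 20 markers was at 0 in a library, and 1 of them, an immune marker, was called, higher in CKO. In bulk RNA, fewer cells of a type and less RNA per cell cannot be told apart.

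Among the 43 tested genes, 3 passed an adjusted p of 0.05 in the edgeR quasi-likelihood test. Zfp990 was lost and Zfp950 was lower in CKO, and Zfp984 was higher. This is 6.98% of the genes, against 7.61% of the 15210 genes tested (4.85% higher and 2.75% lower), so the set as a whole was not called more often than other genes. In the same test, 4 genes were higher and 7 lower at an unadjusted p under 0.05 (25.6%), against 25.2% of all tested genes (13.1% higher and 12.1% lower). The WT and CKO libraries did not overlap for 25 genes (11 higher, 14 lower), or 58.1%, against 57.1% of all tested genes (27.7% higher and 29.3% lower). DESeq2 and limma-voom each called 1 gene of the set, Zfp990, where they called 8.22% and 5.59% of all genes they tested. The median log2 difference was -0.09 over the 43 genes and -0.01 over all tested genes. These genes carried few reads, with a median of 3.57 CPM per gene, not set per length, against 16.4 CPM over all tested genes. With each CKO library set against the WT mean, both were below it for 20 genes, both above it for 13 and on different sides for 10.

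**Figure D1:**
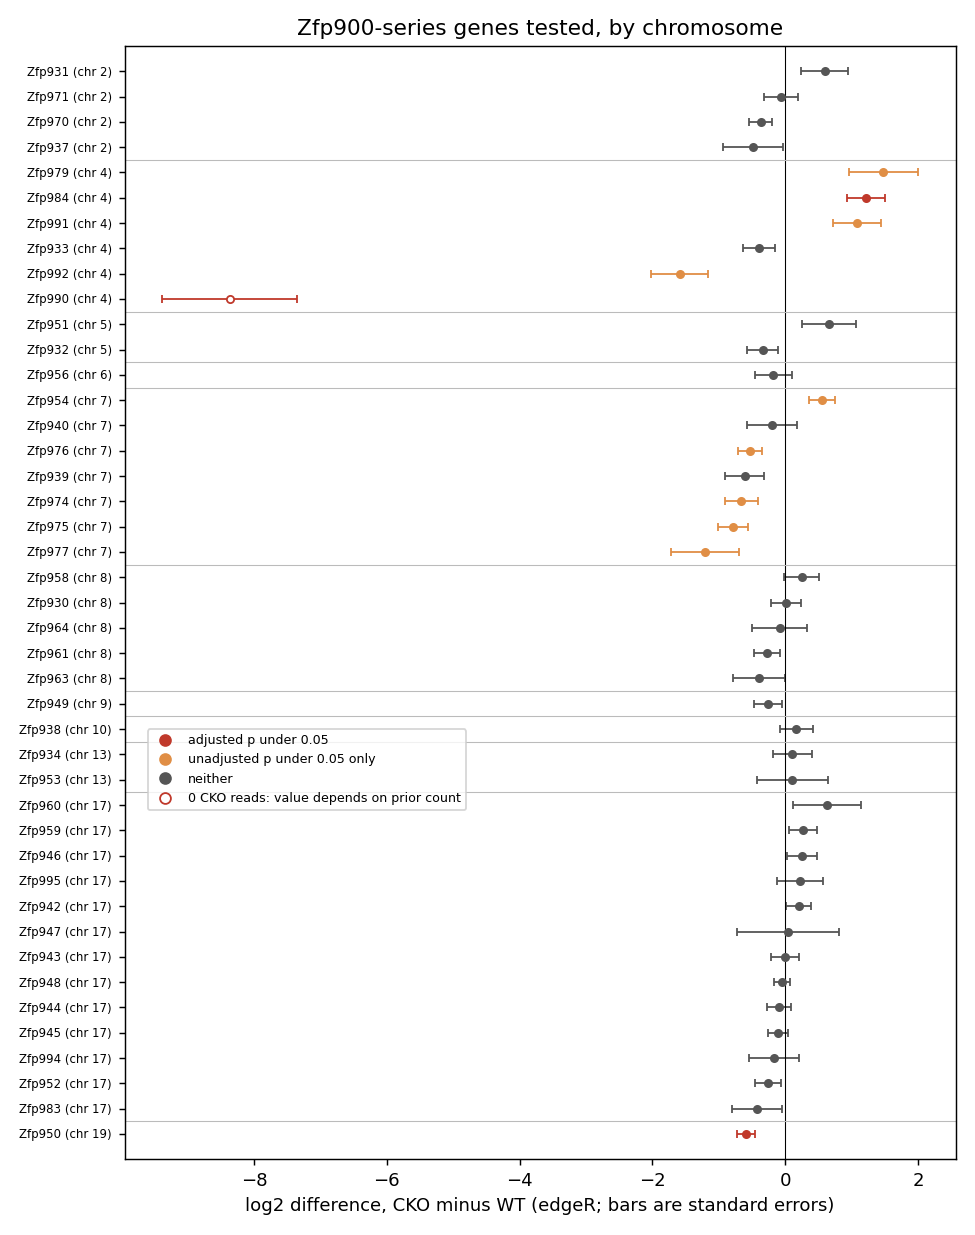
Log2 difference of CKO minus WT with its standard error (horizontal axis) for the 43 tested genes, grouped by chromosome. Red points passed an adjusted p of 0.05 and orange points only an unadjusted p of 0.05. The open point is Zfp990, whose fitted value depends on the prior count because both CKO libraries had 0 reads, and the 13 genes of chromosome 17 stay between -0.43 and 0.64.

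The promoters of 6 genes are shown because the results below turn on them and because sets of them share sequence. RefSeq promoters (250 bases before to 50 after a start, GRCm38.p6) matched 47 of the 53 genes by symbol, with 55 promoters in all. The matched genes include the 6 genes with fewer than 10 reads, so they are not the same 47 as the genes described here. No entry was matched for Zfp990, Zfp991, Zfp992, Zfp930, Zfp934 or Zfp960. The 250 bases before the start are printed from 5′ to 3′ on the strand of the gene, with all CG dinucleotides in capitals. CG is the kind of site at which Dnmt1 can copy methylation, and whether those printed are methylated was not measured here. Zfp984 (chr4:147809789-147810038, minus strand) and Zfp979 (chr4:147642509-147642758, minus strand) are neighbours with higher values in both CKO libraries, of which Zfp984 was called and Zfp979 was not. Zfp975 (chr7:42692719-42692968, minus strand), Zfp976 (chr7:42642605-42642854, minus strand) and Zfp977 (chr7:42592546-42592795, minus strand) form a run of genes with lower values in both CKO libraries, none of which was called. Zfp950 (chr19:61140841-61141090, minus strand) was called lower.
Zfp984: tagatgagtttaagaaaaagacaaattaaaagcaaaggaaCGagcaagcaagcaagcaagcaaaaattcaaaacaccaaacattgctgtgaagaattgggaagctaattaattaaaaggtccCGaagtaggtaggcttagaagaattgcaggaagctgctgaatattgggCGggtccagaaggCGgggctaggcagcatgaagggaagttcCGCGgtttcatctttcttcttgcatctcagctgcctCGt
Zfp979: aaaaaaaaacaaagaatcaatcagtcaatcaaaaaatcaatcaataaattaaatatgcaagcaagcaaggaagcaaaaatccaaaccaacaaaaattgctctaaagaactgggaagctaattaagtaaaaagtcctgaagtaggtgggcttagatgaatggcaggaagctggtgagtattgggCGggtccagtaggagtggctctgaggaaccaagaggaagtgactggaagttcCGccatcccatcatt
Zfp975: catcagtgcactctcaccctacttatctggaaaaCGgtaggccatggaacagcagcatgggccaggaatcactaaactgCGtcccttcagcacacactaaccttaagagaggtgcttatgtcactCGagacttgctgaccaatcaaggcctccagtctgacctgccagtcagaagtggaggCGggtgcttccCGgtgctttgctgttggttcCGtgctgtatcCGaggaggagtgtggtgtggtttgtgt
Zfp976: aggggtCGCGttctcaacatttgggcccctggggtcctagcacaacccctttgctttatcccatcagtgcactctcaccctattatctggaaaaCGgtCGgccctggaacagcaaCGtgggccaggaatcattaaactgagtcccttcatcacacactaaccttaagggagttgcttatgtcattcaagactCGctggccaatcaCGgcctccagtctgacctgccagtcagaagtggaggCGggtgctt
Zfp977: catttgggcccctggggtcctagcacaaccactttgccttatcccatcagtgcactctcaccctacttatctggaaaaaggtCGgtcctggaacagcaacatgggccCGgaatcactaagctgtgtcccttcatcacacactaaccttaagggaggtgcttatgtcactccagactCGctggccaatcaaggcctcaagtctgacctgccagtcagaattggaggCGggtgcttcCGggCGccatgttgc
Zfp950: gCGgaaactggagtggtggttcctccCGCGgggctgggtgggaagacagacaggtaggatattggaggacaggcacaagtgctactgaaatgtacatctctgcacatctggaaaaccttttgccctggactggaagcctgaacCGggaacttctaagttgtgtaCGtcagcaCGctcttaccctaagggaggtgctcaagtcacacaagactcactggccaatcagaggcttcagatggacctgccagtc
The 250 bases held 7 CG in Zfp984, 2 in Zfp979, 7 in Zfp975, 8 in Zfp976, 6 in Zfp977 and 6 in Zfp950. Aligned over these bases, Zfp976 and Zfp977 were identical at 81.7% of the columns, Zfp984 and Zfp979 at 68.4%, Zfp975 and Zfp977 at 64.3% and Zfp984 and Zfp950 at 47.3%.

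The longest run of letters common to the promoters shown of Zfp950, Zfp975, Zfp976 and Zfp977 was GACCTGCCAGTC, 12 bases that start 12 to 92 bases before the transcription start. These genes were picked for their lower level in CKO, and all promoters were then searched for the run on both strands. It was found in 11 of the 55 promoters of this name range (20%, 10 genes). These include Zfp950, Zfp975, Zfp976 and Zfp977, from which the run was taken, so their matches were fixed by that choice. The run was in 0 of 307 promoters of other Zfp-numbered genes and in 53 of 32851 promoters of all genes (0.161%). Those 53 promoters belong to 47 genes, of which 10 are of this name range. Most genes with the run thus lie outside the range, and they were not followed here. The other genes of this name range with it were Zfp931, Zfp932, Zfp967, Zfp970, Zfp971 and Zfp973, of which 4 were tested. Zfp967 and Zfp973 are among the genes with fewer than 10 reads. Their log2 differences were -0.37 ± 0.18 SE for Zfp970, -0.34 ± 0.23 for Zfp932, -0.06 ± 0.25 for Zfp971 and 0.60 ± 0.35 for Zfp931. None of these 4 was at an unadjusted p under 0.05 in edgeR.

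The longest run common to Zfp984 and Zfp979 was TATTGGGCGGGTCCAG, 16 bases that start 87 and 74 bases before the transcription start. On either strand it was found in 9 of 32851 promoters (0.0274%), and these 9 all lie on chromosome 4. They belong to Zfp979, Zfp982, Zfp984 and Zfp985 of the count table, to Zfp600, Rex2 and Gm13212 outside this name range, and to Zfp980 and Zfp988, which were not analysed here. The letters CCAAT, the core of the CCAAT box, stood in 41 of the 55 promoters on one strand or the other (74.5%). They stood in 130 of 307 promoters of other Zfp-numbered genes (42.35%) and in 37.4% of all promoters. In Zfp950, Zfp975, Zfp976 and Zfp977 they start 20 bases further upstream than GACCTGCCAGTC and do not overlap it, and on the opposite strand they form part of TATTGGGCGGGTCCAG. A match of letters was taken as a description and not as a binding site. The 55 promoters of this name range held a median of 8 CG in 300 bases (quartiles 5 and 11), against 7 (quartiles 3 and 20) over all promoters. At least 10 CG were found in 34.5% of them against 43.5% of all.

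The clearest loss was that of Zfp990, a KRAB zinc finger gene with 13 fingers at chr4:145510759-145539188 (plus strand). It had 32 reads in WT A (1.40 CPM), 51 in WT B (1.92 CPM) and 0 in both CKO A and CKO B. The pooled WT level was at least 27.8-fold higher than the level that 3 reads over the CKO group would give, a floor for counting error alone. The edgeR adjusted p was 0.00683. Zfp990 was called in edgeR, DESeq2 and limma-voom, under both other scalings, and without any 1 of the 4 libraries, with adjusted p between 3.88e-11 and 0.0389. In the authors' deposited table its log2 fold change was -8.35 with an adjusted p of 6.21e-09. Of its 50-base exon windows, 29.1% were also found in another gene, most of all in Zfp987, so part of its reads could have been split between copies by the counting. Because no strain or litter is given, a difference between the animals in the genomic sequence of this cluster and a change in transcription cannot be told apart here, for Zfp990 and for the genes around it.

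Around Zfp990, related genes of the same cluster moved in opposite directions. The cluster runs over 2338 kb from Zfp990 to Zfp933 and holds 8 of the 47 genes, of which 6 were tested, and the WT and CKO libraries did not overlap for any of the 6, against 57.1% of all tested genes. The genes below other than Zfp984, Zfp979 and Zfp990 were chosen after their values were seen.

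Zfp992, with 11 fingers and the KRAB pattern (chr4:146449023-146470292, plus strand), had 2.06 and 1.62 CPM in WT and 0.571 and 0.647 CPM in CKO. Both CKO libraries, with 15 reads each, were below both WT libraries. The difference was 3.01-fold (log2 -1.59 ± 0.42 SE, unadjusted p = 0.00559) and was not called (edgeR adjusted p = 0.0623). Zfp992 shared 43.0% of its windows with other genes, most with Zfp991.

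Zfp984, with 11 fingers and the KRAB pattern (chr4:147753974-147809788, minus strand), rose in CKO. It had 1.93 CPM in WT A and 1.74 in WT B (1.83 ± 0.139, SD, n = 2 libraries), and 3.84 in CKO A and 4.70 in CKO B (4.27 ± 0.607, SD, n = 2 libraries). Both CKO libraries, with 101 and 109 reads, were above both WT libraries, with 44 and 46. The rise was 2.33-fold (log2 1.22 ± 0.29 SE, edgeR adjusted p = 0.0436). It was not called by DESeq2 (adjusted p = 0.0771) or limma-voom (0.0586), nor in edgeR without WT A (0.131), WT B (0.223) or CKO B (0.104), within a range over all alternatives of 0.00517 to 0.223. Zfp984 shared 54.5% of its windows with other genes, most with Gm13212, and its exons overlap those of Gm20707 on the same strand.

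Zfp991, a close relative of Zfp992 with 11 fingers (chr4:147132038-147180579, plus strand), had 0.966 and 1.21 CPM in WT and 2.25 and 2.37 CPM in CKO. The CKO libraries stood above the WT libraries, by 2.11-fold (log2 1.08 ± 0.36 SE, edgeR unadjusted p = 0.0166, adjusted p = 0.109). Of its windows, 82.2% were also found in other genes, most of them in the pseudogene Znf41-ps, so its count is uncertain. Zfp979 (chr4:147611937-147642513, minus strand) had the largest positive difference of the 43 genes. Its values were 0.483 and 0.453 CPM in WT and 0.914 and 1.73 CPM in CKO, from 11, 12, 24 and 40 reads. It did not pass the adjusted threshold (log2 1.48 ± 0.52 SE, edgeR adjusted p = 0.122).

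At the far end of the cluster, Zfp933 (chr4:147822986-147848366, minus strand) shared 1.83% of its windows with other genes. It had 7.11 and 6.79 CPM in WT and 4.34 and 6.26 CPM in CKO. Both CKO libraries were below both WT libraries, but the difference was not called (log2 -0.39 ± 0.24 SE, edgeR adjusted p = 0.347). Zfp993 (6 and 2 reads in WT, 9 and 10 in CKO) and Zfp982 (4 and 6 reads in WT, 5 and 10 in CKO) were too low for the test. Of 3 other tested genes in the interval, none was called. Gm13212, the gene that shares most windows with Zfp984, had 5 and 1 reads in WT and 12 and 15 in CKO (log2 2.11 ± 0.81 SE, edgeR adjusted p = 0.154). The summed level of the 8 genes was 14.4 and 14.0 CPM in WT and 12.5 and 16.6 CPM in CKO, and the groups overlapped.

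**Figure D2:**
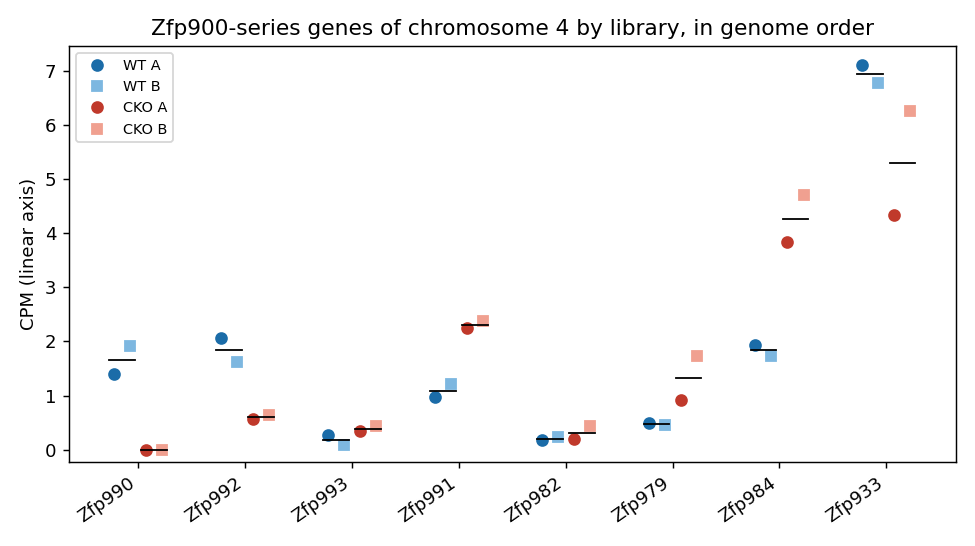
CPM of the 8 chromosome 4 genes in each library (vertical axis, linear, bars at the group mean of 2 libraries), in genome order. Zfp990 falls to 0 and Zfp992 is lower in both CKO libraries, while Zfp991, Zfp979 and Zfp984 are higher in both.

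**Figure D3:**
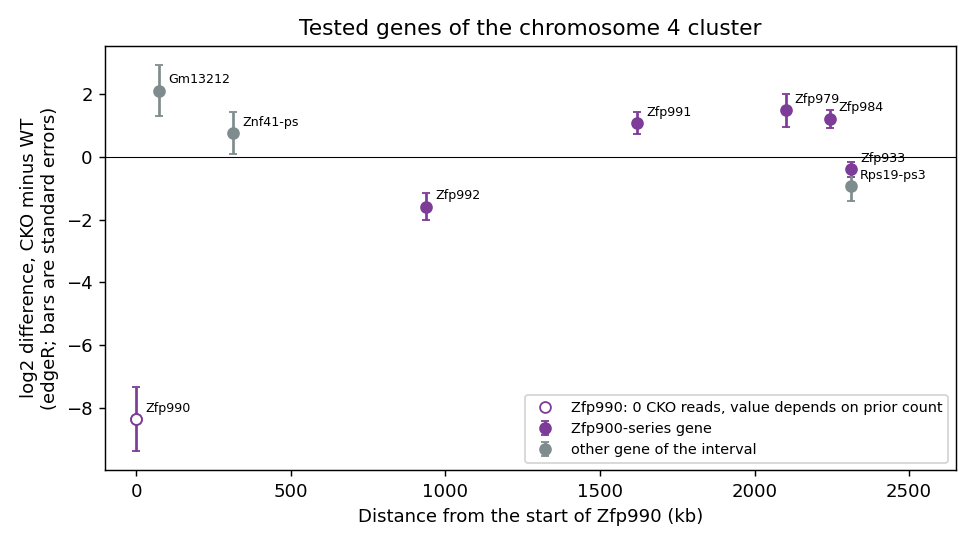
Log2 difference of CKO minus WT with its standard error (vertical axis) against the distance from the start of Zfp990 in kb, for the tested genes of the chromosome 4 cluster. Purple points are genes of the set, grey points the 3 other tested genes of the interval, and the open point marks Zfp990 with 0 CKO reads. Positive and negative values are interspersed along the cluster: Gm13212 and Znf41-ps are positive between Zfp990 and Zfp992, and Zfp933 and Rps19-ps3 are negative beyond Zfp984.

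On chromosome 7 the run Zfp977, Zfp976 and Zfp975 had lower levels in both CKO libraries, and no gene of the chromosome was called. These genes and Zfp974 were chosen after their values were seen. Of 7 tested genes, 0 passed in edgeR, DESeq2 or limma-voom, and 5 were at an unadjusted p under 0.05 in edgeR (25.2% of all tested genes), 4 lower and 1 higher. For 6 of the 7 the WT and CKO libraries did not overlap, against 57.1% of all tested genes.

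Zfp975, with 14 fingers and the KRAB pattern (chr7:42660105-42692742), had 8.12 and 7.32 CPM in WT and 5.06 and 3.88 CPM in CKO. Every CKO value was below every WT value, by 1.72-fold (log2 -0.78 ± 0.22 SE, edgeR unadjusted p = 0.00811, adjusted p = 0.0747). Without CKO A it was called (adjusted p = 0.0343, within a range of 0.0343 to 0.327 over its alternatives).

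Zfp976, with 18 fingers and the KRAB pattern (chr7:42609526-42642588), had 10.9 and 11.9 CPM in WT and 8.26 and 7.55 CPM in CKO. The groups again did not overlap, with a difference of 1.44-fold (log2 -0.53 ± 0.17 SE, edgeR adjusted p = 0.107). Zfp977 (chr7:42579783-42592547) lay lower still, with 1.05 and 1.32 CPM in WT and 0.343 and 0.690 CPM in CKO (log2 -1.21 ± 0.52 SE, edgeR adjusted p = 0.192). Zfp977 shared 8.47% of its windows with other genes, Zfp976 20.4% and Zfp975 30.4%. Zfp936, the next gene of the set along the chromosome, had 1 and 2 reads in WT and 1 and 10 in CKO and was not tested.

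Elsewhere on chromosome 7, Zfp974 (chr7:27907392-27929460), which held the most fingers of the set, had 4.79 and 4.30 CPM in WT and 2.82 and 2.93 CPM in CKO. Its CKO libraries were both below the WT libraries (log2 -0.66 ± 0.25 SE, edgeR adjusted p = 0.153). Zfp939, a transcribed pseudogene in GENCODE M21, had 3.73 and 3.51 CPM in WT and 2.74 and 1.98 CPM in CKO (log2 -0.61 ± 0.30 SE, adjusted p = 0.247 in edgeR). Zfp954 (chr7:7114690-7121488), among the 5 highest of the set by mean CPM, went the other way. It had 8.83 and 12.5 CPM in WT and 16.3 and 15.2 CPM in CKO, without overlap (log2 0.56 ± 0.20 SE, edgeR unadjusted p = 0.0216, adjusted p = 0.126). Zfp940 overlapped between the groups (log2 -0.20 ± 0.37 SE, edgeR adjusted p = 0.783).

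**Figure D4:**
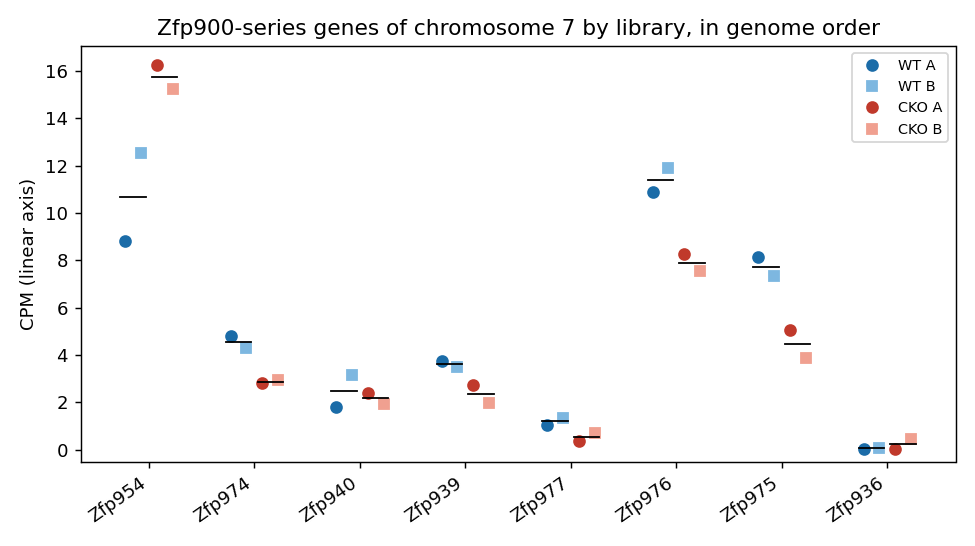
CPM of the 8 chromosome 7 genes in each library (vertical axis, linear, bars at the group mean of 2 libraries), in genome order. Zfp974, Zfp939, Zfp977, Zfp976 and Zfp975 are lower in both CKO libraries than in both WT libraries, Zfp954 is higher in both, and Zfp940 overlaps.

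Zfp950, with 17 fingers at chr19:61053840-61140840 (minus strand), fell in CKO. Its mean CPM, not set per length, was the second highest of the set. It had 25.6 CPM in WT A and 28.2 in WT B (26.9 ± 1.83, SD, n = 2 libraries), and 16.8 in CKO A and 18.9 in CKO B (17.8 ± 1.46, SD, n = 2 libraries). The libraries did not overlap, and the fall was 1.51-fold (log2 -0.59 ± 0.14 SE, edgeR adjusted p = 0.0399). It shared 0.852% of its windows with other genes, against 27.1% to 82.2% for Zfp979, Zfp990, Zfp992, Zfp984 and Zfp991. The call was not made by DESeq2 (adjusted p = 0.0613) or limma-voom (0.0536), with a mean of at least 1 CPM (0.0501), nor without WT A (0.123), WT B (0.282) or CKO A (0.0591), within a range over all alternatives of 0.00879 to 0.282. In the authors' deposited table its adjusted p was 0.0794, and 2 genes of the set, Zfp990 and Zfp984, were under 0.05 there.

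Chromosome 17 carried the largest group and the largest summed CPM, and no gene there was called. Of 13 tested genes, 0 passed in edgeR, DESeq2 or limma-voom and 0 were at an unadjusted p under 0.05 in edgeR. Their log2 differences ran from -0.43 (Zfp983) to 0.64 (Zfp960), with 7 positive and 6 negative. For 6 of them (46.2%) the WT and CKO libraries did not overlap, against 57.1% of all tested genes.

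Zfp948, a KRAB zinc finger gene with 15 fingers (chr17:21567008-21588699, plus strand), had the highest mean of the set both in CPM and per kb of exon. It had 52.3 and 48.2 CPM in WT and 51.7 and 45.3 CPM in CKO, so the groups overlapped (log2 -0.05 ± 0.12 SE, edgeR adjusted p = 0.831). Zfp945, with 18 fingers (chr17:22846697-22867134, minus strand), had 17.8 and 19.7 CPM in WT and 15.9 and 18.9 CPM in CKO, again with overlap (log2 -0.11 ± 0.15 SE, edgeR adjusted p = 0.715). The sign of these 2 small differences turned when single libraries were left out. Zfp960 shared 82.7% of its windows with other genes, most of them with Zfp97, so its positive value (log2 0.64 ± 0.51 SE, edgeR adjusted p = 0.485) rests on uncertain counts. The stretch from Zfp948 to Zfp945 spans 1300 kb with 10 genes of the set, and 8 other tested genes lie within it. None of those 8 was called by edgeR, and 1 was at an unadjusted p under 0.05, lower in CKO.

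On chromosome 2, none of 4 tested genes was called by edgeR, DESeq2 or limma-voom and none was at an unadjusted p under 0.05 in edgeR. Zfp970 (chr2:177464733-177478129, plus strand), the last of the 5 highest of the set by mean CPM, had 10.9 and 11.9 CPM in WT and 8.22 and 9.49 CPM in CKO. Its groups did not overlap, but the difference did not pass (log2 -0.37 ± 0.18 SE, edgeR unadjusted p = 0.0702, adjusted p = 0.24). It shared 49.7% of its windows with other genes, most with Gm14288. Zfp937 had a log2 difference of -0.48 ± 0.46 SE and Zfp971 one of -0.06 ± 0.25 SE.

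The 5 genes of chromosome 8 (Zfp958, Zfp930, Zfp964, Zfp963 and Zfp961) had log2 differences of -0.39 to 0.25, and 0 of them passed in edgeR, DESeq2 or limma-voom or at an unadjusted p under 0.05 in edgeR. On the other chromosomes, none of Zfp951 (0.66 ± 0.40 SE), Zfp932 (-0.34 ± 0.23 SE), Zfp956 (-0.18 ± 0.28 SE), Zfp949 (-0.25 ± 0.21 SE), Zfp938 (0.17 ± 0.25 SE), Zfp934 (0.11 ± 0.29 SE) or Zfp953 (0.11 ± 0.53 SE) passed an unadjusted p of 0.05 in edgeR. Zfp957 had 7 and 5 reads in WT and 0 and 7 in CKO and was not tested.

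Summed over the genes of a chromosome, the ratio of the CKO to the WT mean was between 0.870 and 1.02 on the 5 chromosomes with at least 3 genes. On chromosome 17 the 13 genes together had 120.4 and 117.8 CPM in WT and 119 and 114.5 CPM in CKO, a ratio of CKO to WT of 0.980. On chromosome 7 the 8 genes had 39.3 and 44.1 CPM in WT and 37.9 and 34.6 CPM in CKO, a ratio of 0.870 with no overlap between the groups. The sums also did not overlap on chromosome 8, with 19.5 and 19.8 CPM in WT against 19.2 and 17.7 CPM in CKO (ratio 0.942). Over the 47 genes the sum was 265.7 and 272.4 CPM in WT (269 ± 4.69, SD, n = 2 libraries) and 247.8 and 248.1 CPM in CKO (247.9 ± 0.236, SD, n = 2 libraries), a ratio of 0.922. With 2 libraries against 2, an exact two-sided permutation test cannot go below p = 0.333, so these sums are given without a test.

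**Figure D5:**
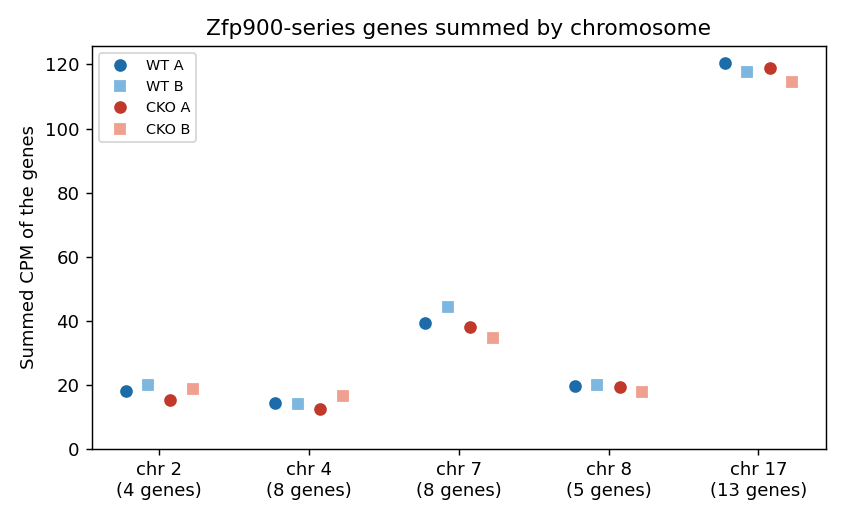
Summed CPM per library (vertical axis, from 0) of the genes of the set on each chromosome with at least 3 of them. Chromosome 17 holds the largest sums, 114.5 to 120.4 CPM, and the 2 CKO libraries lie below the 2 WT libraries on chromosomes 7 and 8.

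Levels of different genes can be set side by side per length. On the scale of mean CPM per kb of exon, the 43 genes ran from 0.141 (Zfp947) to 18.6 (Zfp948), with a median of 1.20, and the next highest were Zfp954 with 5.52, Zfp970 with 4.66 and Zfp944 with 2.87.

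The genes with much shared sequence held the larger differences, largely those of the chromosome 4 cluster. Of the 43 tested genes, 13 had over 25% of their 50-base exon windows in another gene. In this group 2 (15.4%) were called and 6 (46.2%) were at an unadjusted p under 0.05 in edgeR. The median size of the log2 difference was 0.64. Both called genes, Zfp990 and Zfp984, lie in the chromosome 4 cluster. So do Zfp992, Zfp991 and Zfp979 of the 6, and the other is Zfp975. Whether the relation holds apart from this cluster was not tested. In the 30 genes with 25% or less, 1 (3.33%) was called and 5 (16.7%) were at an unadjusted p under 0.05, and the median size was 0.25. Over all tested genes 7.61% were called, 25.2% were at an unadjusted p under 0.05, and the median size was 0.25. Across the 43 genes, Spearman's rho between the shared share and the size of the difference was 0.44, and with the signed difference it was -0.05. The genes share the 4 libraries and are not independent, and the median, not set per length, was 1.82 CPM in the first group and 4.30 CPM in the second, so the part of level and read assignment in this relation was not tested. Across the 37 tested genes with a promoter entry, rho between the number of CG and the size of the difference was -0.24. With the signed difference it was -0.01. Across 42 genes with a coding sequence, rho between the number of fingers and the size of the difference was 0.06. With the signed difference it was -0.44, so genes with more fingers tended to the lower values. This relation was not tested.

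Among the corepressors through which KRAB zinc finger proteins act, Resf1 was higher in CKO and no other was called. Of 20 listed genes, 19 were tested and 1 was called (5.26%), against the same 7.61% of all tested genes. Resf1, a partner of SETDB1 in the silencing of endogenous retroviruses, had 28.7 and 26.8 CPM in WT and 41.4 and 61.4 CPM in CKO. Both CKO libraries were above the WT libraries, by 1.85-fold (log2 0.89 ± 0.19 SE, edgeR adjusted p = 0.037). The call was not made by limma-voom, with a mean of at least 1 CPM, without WT A or without WT B.

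Trim28, the corepressor that the KRAB domain binds, had 269 and 264 CPM in WT and 282 and 257 CPM in CKO (log2 0.01 ± 0.11 SE, edgeR adjusted p = 0.952). Setdb1, the histone methyltransferase of the complex (log2 -0.31 ± 0.12 SE), and Cbx5, a heterochromatin protein gene (log2 -0.33 ± 0.12 SE), were both lower in the CKO libraries without overlap and at an unadjusted p of 0.0264 and 0.0263, but not called (edgeR adjusted p = 0.14 for each). Uhrf1, which guides Dnmt1 to hemimethylated DNA, differed by -0.21 ± 0.14 SE on the log2 scale (edgeR adjusted p = 0.414). No listed corepressor was called lower by edgeR, with 2 at an unadjusted p under 0.05, and the median over the 19 genes was -0.08.

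Among 18 KRAB zinc finger genes outside this name range with a described role, 13 were tested and 1, Zfp57, was called (7.69%, against 7.61% of all tested genes). Zfp57, which protects methylation at imprinted control regions, had 45.9 and 47.2 CPM in WT and 27.2 and 23.4 CPM in CKO. The groups did not overlap and the fall was 1.84-fold (log2 -0.88 ± 0.12 SE, edgeR adjusted p = 0.00778), and it was not called without WT B. Zfp69 (log2 0.89 ± 0.25 SE, edgeR adjusted p = 0.0692) and Zfp809, which recognises a retroviral primer binding site (log2 0.45 ± 0.16 SE, edgeR adjusted p = 0.124), were higher in both CKO libraries and not called. Zfp30 was lower in both (log2 -0.49 ± 0.17 SE, edgeR adjusted p = 0.126) and not called either. The largest difference of the 13 was that of Zfp429 (log2 1.15 ± 0.46 SE, edgeR adjusted p = 0.172), which was not called. It had 20 and 25 reads in WT and 72 and 30 in CKO. Zfp445, another guardian of imprints, differed by -0.14 ± 0.11 SE (edgeR adjusted p = 0.462). The other 5 listed genes, Zfp600, Rex2, Zfp345, Zfp459 and Zfp708, had 1 to 9 reads each.

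The 280 other tested genes named Zfp and a number were called in 17 cases, 3 higher and 14 lower, or 6.07%. Their median log2 difference was -0.17, and 208 of them (74.3%) were negative, against 25 of 43 (58.1%) in the Zfp900 to Zfp999 genes and 50.9% of all tested genes. Whether the Zfp900 to Zfp999 genes differed from the other Zfp genes in this was not tested. Zfp536, the called gene of lowest p, fell from 73.9 to 30.6 CPM on average (2.42-fold, edgeR adjusted p = 0.00241). The next by p were Zfp57, given above, Zfp264 and Zfp451. Zfp264 rose from 1 and 0 reads in WT to 30 and 71 in CKO (edgeR adjusted p = 0.0115). Zfp451 fell from 57.2 to 34.3 CPM on average (1.67-fold, edgeR adjusted p = 0.0118).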

How the data were processed

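RNA from sorted cells of 2 WT and 2 CKO samples was sequenced. Per the file headers, the authors deposited raw counts of reads for each gene, and also a log2 fold change, p-values and gene lengths in bases (another kind of value). The submitters' processing notes name STAR, cutadapt 2.5, Trimmomatic 0.36, FastQC 0.11.8 and edgeR 3.28.1, with the build GRCm38.p6. How reads were counted, strand included, is not given in the sources used here. Reads of overlapping genes or near-identical copies can therefore not be separated. A further 4 per-sample columns were left unused. Count columns named Control and Mutant were read as WT and CKO. They carry no replicate number that matches the labels, and libraries were lettered in column order.

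The counts were tested in R 4.3.3 with edgeR 4.0.16 (filterByExpr with a minimum count of 10, TMM scaling, robust glmQLFit and glmQLFTest). P-values were adjusted by Benjamini-Hochberg over the 15210 tested genes and called under 0.05. The biological coefficient of variation was 0.160. CPM uses the scaled library sizes. Standard errors were derived from the log2 difference and the F statistic. Floors cover counting error alone, and PCR copies are not independent molecules. Alternatives were DESeq2 1.42.0, limma-voom 3.58.1, library size alone, RLE size factors, no filter, a mean of at least 1 CPM, an adjusted p under 0.01 and leaving out each library. The fit was tried on simulated counts.

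Coordinates, exons and coding sequences came from GENCODE M21 (GRCm38), in which all 53 genes matched by identifier. The name of the deposited table gives a different GENCODE release, so its gene models may differ from these. Exons were cut into windows of 50 bases and looked up in the transcripts of all genes. GENCODE M21 has 11 more genes of this name range that have no row in the table and were not analysed here. The genes and lists were chosen with earlier results of these data known. Genes given in full were those called, the 5 of highest mean CPM, the largest rise and fall, and those with 0 reads in one genotype. Genes named for an unadjusted p, for their position or for shared sequence were chosen after their values were seen.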

Additional observations from a re-analysis of the deposited data

How the results depend on the processing

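No paired analysis was possible because the count columns carry no replicate number that matches the labels. Values of the single Zfp900-series genes followed under the alternatives were counted, without Dnmt1. Of these values, 131 kept their direction and side of the threshold, 4 passed it newly, 13 no longer passed and 3 changed sign. The changes of sign were in Zfp945 (-0.23 to 0.043 on the log2 scale with 1 library left out, the latter without CKO A) and Zfp948 (-0.12 to 0.050, with 0.020 without WT A and 0.050 without CKO B). Over all tested genes the count of calls was 1157, against 2459 with no filter and 241 at an adjusted p under 0.01, and leaving out 1 library gave 339 to 1842. Of the Zfp900-series genes, 3 were called, against 1 with DESeq2, limma-voom, a mean of at least 1 CPM or an adjusted p under 0.01, 6 with no filter (Zfp950, Zfp954, Zfp975, Zfp984, Zfp990 and Zfp992), and 1 to 3 with 1 library left out. On chromosome 4 the count of 2 became 1 with DESeq2, limma-voom, a mean of at least 1 CPM or an adjusted p under 0.01, and 1 to 2 with 1 library left out. On chromosome 7 the count of 0 became 2 with no filter and 0 to 1 with 1 library left out, Zfp975 being called without CKO A. The 17 other Zfp-numbered genes called became 11 with limma-voom, 33 with no filter, 2 at an adjusted p under 0.01 and 2 to 22 with 1 library left out. The corepressor count of 1 became 0 with limma-voom, a mean of at least 1 CPM or an adjusted p under 0.01, and 0 to 1 with 1 library left out. The count of 1 KRAB zinc finger gene with a described role became 2 with no filter and 0 to 3 with 1 library left out (0 without WT B, 3 without CKO A). The Dnmt1 difference ran from -2.11 to -0.72 with 1 library left out. Leaving out a library leaves 1 sample in its group, which the fit assumes to vary like the other group. The causes of these changes were not tested. With a mean of at least 1 CPM, Zfp990, Zfp977 and Zfp979 were not tested. Scaling by RLE or by library size alone moved the median of all genes by less than 0.1 (log2). The 4 genes of the set that were kept but not tested did not pass the filter on low counts.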

Other observations

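Zfp990 had the most WT reads, 83, of 146 genes that had at least 10 WT reads and 0 reads in both CKO libraries. It was the 1 gene of these with at least 50 WT reads, and 82 of the 146 had reads in both WT libraries. The edgeR test called Zfp990 and Masp2, a protease gene of the complement lectin pathway, both chosen here after their values were seen. Genes of the 146 that did not pass the filter on low counts were not tested, among them Gm50403 (46 WT reads) and Ucma (32). The number tested is not given here. Over all tested genes 2.75% were called lower, but the 146 were picked for their 0 CKO reads. Masp2 (chr4:148602554-148615499) had 15 reads in WT A, 22 in WT B and 0 in both CKO libraries (edgeR adjusted p = 0.0181), and its start lies 3.09 Mb from that of Zfp990 on the same chromosome.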
